A study of Mus musculus with 42 samples.

Results

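The serum amyloid A family of the mouse was measured in liver as 4 of the 277 genes of the Steroltalk cDNA array, Saa1, Saa2, Saa3 and Saa4. Members were the mouse probes whose name in the scanner files is a family symbol or its synonym, and each gene had 1 probe printed as 3 spots. The family was picked because its values were low in mice given TCPOBOP and because 1 mouse of that treatment stood apart, so for the 4 members every difference that holds TCPOBOP arrays is given below as a description, with no test. The comparisons of the diet in vehicle mice and of PCN did not enter that choice and were tested. The vehicle mice of pool 1 also serve in the TCPOBOP differences, so tests that use them are not fully separate from the choice.

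All animals were female C57BL/6 mice, and liver RNA of each mouse was hybridized alone against a reference pool on a 2-colour array. The labels describe 42 samples in 7 groups of 6 mice, each mouse killed 24 h after 1 intraperitoneal injection. TCPOBOP, which activates the constitutive androstane receptor of the mouse, was given at 3 mg/kg to mice on the diet with 1% cholesterol for 1 week (18 weeks old) and to mice on standard diet (19 weeks). PCN, which activates the pregnane X receptor in mice, was given at 40 mg/kg to mice on the cholesterol diet (16 weeks). The vehicle groups on the cholesterol diet and on standard diet (both 19 weeks) received corn oil. These 5 groups were set against reference pool 1, a mix of all samples. PCN treated mice on standard diet (18 to 19 weeks) and their vehicle mice (19 weeks) were set against reference pool 3, made of the vehicle and PCN samples of that diet, and are kept apart. Age therefore differs with treatment among the groups on the cholesterol diet, and the effects of both cannot be told apart. Of the 42 samples, 40 arrays with their own scanner values were used, so that the vehicle group on cholesterol diet and the vehicle group of pool 3 each had 5 mice. Each value is the log2 ratio of a mouse's liver RNA to the pool, so 0 means the level of the pool and -1 means 1 log2 step below it. The numbers of the mice below are the replicate numbers of the labels.

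Serum amyloid A proteins are small apolipoproteins that travel in plasma on high density lipoprotein. Saa1 and Saa2 are the acute phase members, made by hepatocytes under the drive of interleukin 6, interleukin 1 and tumour necrosis factor, which reach their promoters through NF-kappaB, C/EBP and STAT3. Saa3 is an acute phase member made in the mouse by macrophages and adipocytes as well as by liver, and Saa4 is the constitutive member, which hardly answers to inflammation. In long inflammation the acute phase members are the source of amyloid deposits in the organs.

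The promoters of the 4 genes are shown because 3 of the members moved together between mice and the fourth did not. All lie on chromosome 7 (RefSeq sequences, build GRCm38.p6), and each runs from 250 bases before to 50 bases after the start used there, 5′ to 3′ on the strand of the gene. For Saa1 and Saa3 that start lies inside the span listed for the gene. Capitals mark matches to a loose NF-kappaB pattern, GGG and CC with any 5 bases between them, and to TTNNGNAAT, a C/EBP pattern, looked for on both strands. The Saa1 promoter is chr7:46742931-46743230, minus strand, and the Saa2 promoter is chr7:46751583-46751882, plus strand. The Saa3 promoter is chr7:46715627-46715926 and the Saa4 promoter chr7:46732554-46732853, both on the minus strand.
Saa1: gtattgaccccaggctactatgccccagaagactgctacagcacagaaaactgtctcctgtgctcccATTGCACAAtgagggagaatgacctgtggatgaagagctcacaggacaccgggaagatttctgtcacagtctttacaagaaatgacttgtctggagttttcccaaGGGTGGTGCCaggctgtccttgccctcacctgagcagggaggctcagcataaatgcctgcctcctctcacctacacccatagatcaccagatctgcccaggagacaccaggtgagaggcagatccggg
Saa2: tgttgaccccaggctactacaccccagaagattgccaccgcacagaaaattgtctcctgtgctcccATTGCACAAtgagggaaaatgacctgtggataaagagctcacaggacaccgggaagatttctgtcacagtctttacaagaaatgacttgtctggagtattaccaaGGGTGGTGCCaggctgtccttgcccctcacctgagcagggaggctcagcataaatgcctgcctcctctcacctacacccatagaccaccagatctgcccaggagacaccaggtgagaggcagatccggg
Saa3: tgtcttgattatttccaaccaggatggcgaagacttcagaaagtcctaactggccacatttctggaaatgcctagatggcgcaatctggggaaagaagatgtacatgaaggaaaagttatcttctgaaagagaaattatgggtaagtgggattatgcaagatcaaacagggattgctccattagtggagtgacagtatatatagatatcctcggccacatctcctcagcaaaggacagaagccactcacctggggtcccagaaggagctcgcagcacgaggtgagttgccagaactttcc
Saa4: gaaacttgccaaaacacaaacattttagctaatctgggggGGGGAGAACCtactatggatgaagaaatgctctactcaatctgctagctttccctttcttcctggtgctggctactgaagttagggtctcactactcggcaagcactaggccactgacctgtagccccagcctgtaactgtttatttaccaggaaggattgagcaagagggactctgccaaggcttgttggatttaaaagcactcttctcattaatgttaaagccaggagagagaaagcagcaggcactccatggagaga

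Over these windows Saa1 and Saa2 were identical at 95.3% of the aligned positions, whereas Saa1 shared 51.3% with Saa3 and 47.3% with Saa4. The Saa1 and Saa2 windows hold the same pair of matches, GGGTGGTGCC at 78 and 79 bases before the start and ATTGCACAA, on the opposite strand, at 183 and 184 bases before it. In Saa4 the only match was GGGGAGAACC at 210 bases before the start, and the Saa3 window held none. The strict NF-kappaB decamer, whose matches are all matches to the loose pattern too, the STAT3 pattern TTCNNNGAA and the TATA box TATAAA were found in none of the 4 windows. Of 32544 mouse promoter windows of this length, 51.0% held the loose NF-kappaB pattern, 0.157% the strict decamer, 11.4% TTNNGNAAT, 8.33% TTCNNNGAA and 13.6% TATAAA, so a match to the loose pattern is common.

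All 4 genes were bright. Every spot lay above background on all 40 arrays and none was saturated, with mean liver intensities of 1374 to 36195 for Saa1, 1220 to 44012 for Saa2, 532.2 to 12365 for Saa3 and 2753 to 30325 for Saa4, against local backgrounds of at most 173.7. The symbols Saa1 and Saa2 are synonyms of each other in the gene table, and the probe sequences were not used here. Which of both current genes each probe stands for is therefore uncertain, and cross-hybridization between family members cannot be told apart from shared expression. In whole liver RNA, fewer cells of a type and less RNA per cell cannot be told apart either. The labels were checked with Cyp2b10, the classical target of the constitutive androstane receptor, which was at 0.99 to 1.71 in all 12 TCPOBOP treated mice and at -2.88 to -1.42 in the vehicle mice of pool 1. Cyp3a11, the classical target of the pregnane X receptor, averaged -0.24 ± 0.23 in PCN treated mice and -1.16 ± 0.71 in vehicle mice on the cholesterol diet (SD, n = 6 and 5). On standard diet it averaged 0.42 ± 0.39 in PCN treated mice and -0.57 ± 0.32 in vehicle mice (SD, n = 6 and 5).

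On standard diet, Saa1, Saa2 and Saa3 were 10.05- to 11.7-fold lower in TCPOBOP treated mice than in vehicle mice, and Saa4 differed little. Saa1 was at -2.35, -1.38, -3.85, -0.84, -4.36 and -4.87 in the TCPOBOP treated mice 1 to 6, against 0.11, 0.67, 0.46, 0.44, 1.15 and 0.43 in the vehicle mice. All TCPOBOP treated mice lay below all vehicle mice, but mice 2 and 4 were far nearer to the vehicle group than mice 3, 5 and 6. The means were -2.94 ± 1.66 in TCPOBOP treated mice and 0.54 ± 0.35 in vehicle mice (SD, n = 6 each), a difference of -3.48 with a standard error of 0.72, or 11.2-fold lower. Saa2 ran from -5.00 to -0.82 with a median of -3.20 in TCPOBOP treated mice, and from 0.13 to 1.09 with a median of 0.50 in vehicle mice. Its difference was -3.55 (SE 0.74), 11.7-fold lower, again with no overlap of the groups. Saa3, the member also made by macrophages, ran from -4.39 to -0.29 with a median of -2.69 in TCPOBOP treated mice and from 0.50 to 1.56 with a median of 0.74 in vehicle mice. The difference was -3.33 (SE 0.70), 10.05-fold lower, and the groups did not overlap. The constitutive member Saa4 ran from -0.54 to -0.11 with a median of -0.38 in TCPOBOP treated mice and from -0.27 to 0.05 with a median of -0.098 in vehicle mice. These groups overlapped and their means differed by -0.27 (SE 0.09), 1.20-fold lower. Groups that did not overlap with the TCPOBOP mice lower were seen for 3 of the 4 members and for 11.2% of the 277 genes, and nothing is read from that count since the members were chosen on it. Counted from the lowest difference, Saa2, Saa1, Saa3 and Saa4 ranked 1, 2, 4 and 47 of the 277 genes.

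**Figure D1:**
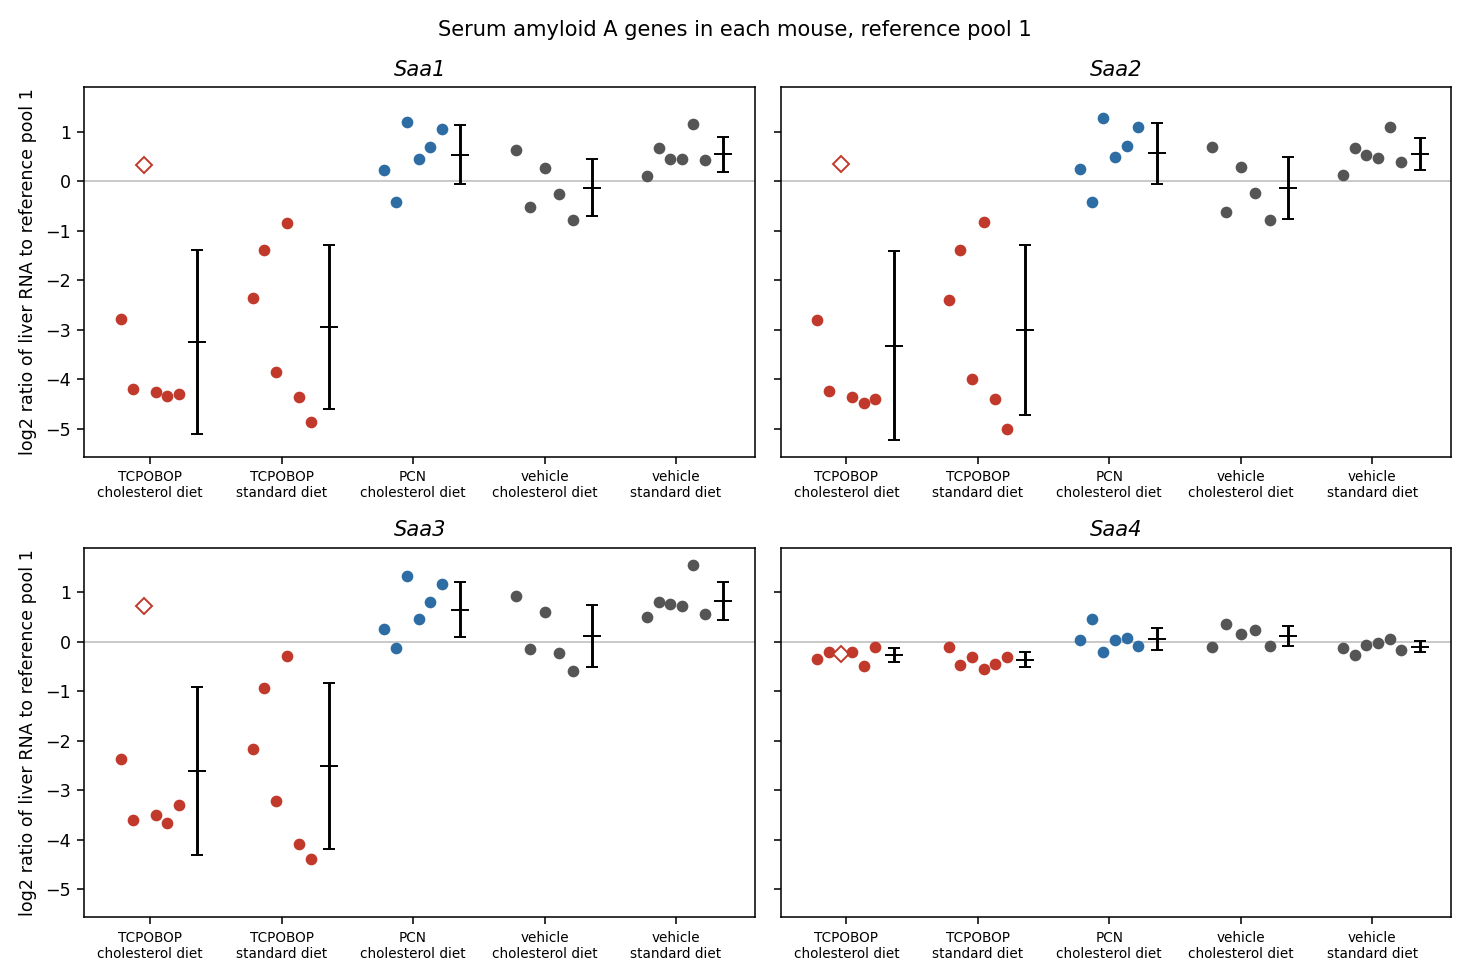
Log2 ratio of liver RNA to reference pool 1 (vertical axis) of Saa1, Saa2, Saa3 and Saa4 in each mouse, one point per mouse in the 5 groups, with the group mean and SD as bars. For Saa1 to Saa3 the TCPOBOP treated mice spread over more than 4 log2 units, and mouse 3 on the cholesterol diet sits at 0.34, 0.34 and 0.72, among the vehicle mice, while Saa4 stays between -0.54 and 0.45 in all mice.

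On the cholesterol diet, 5 of the 6 TCPOBOP treated mice had low Saa1, Saa2 and Saa3 and the remaining one, mouse 3, did not. Saa1 was at -2.79, -4.20, 0.34, -4.26, -4.33 and -4.29 in TCPOBOP treated mice 1 to 6, against 0.64, -0.53, 0.28, -0.25 and -0.78 in the vehicle mice. Mouse 3 lay inside the range of the vehicle mice and all other TCPOBOP treated mice lay below it. The means were -3.26 ± 1.86 in TCPOBOP treated mice (SD, n = 6) and -0.13 ± 0.58 in vehicle mice (SD, n = 5), with a difference of -3.13 (SE 0.76), 8.73-fold lower. Without mouse 3 the difference was -3.85. Saa2 was at -2.81, -4.23, 0.34, -4.37, -4.47 and -4.39 in TCPOBOP treated mice, against 0.70, -0.61, 0.29, -0.25 and -0.79 in vehicle mice. The difference was -3.19 (SE 0.78), and -3.92 without mouse 3. Saa3 was at -2.36, -3.60, 0.72, -3.49, -3.66 and -3.29 in TCPOBOP treated mice, against 0.93, -0.14, 0.60, -0.23 and -0.59 in vehicle mice. Mouse 3 again lay within the vehicle range and the difference was -2.73 (SE 0.73), or -3.40 without that mouse. Saa4 was at -0.35, -0.20, -0.26, -0.21, -0.49 and -0.099 in TCPOBOP treated mice, against -0.11, 0.36, 0.15, 0.24 and -0.088 in vehicle mice. Mouse 3 was in the middle of its group for this gene, and the difference was -0.38 (SE 0.09), the same to 2 decimals without it. The groups overlapped for all 4 genes, at mouse 3 alone for Saa1 to Saa3 and at mouse 6 alone for Saa4. With mouse 3 in place, 3.61% of the 277 genes had TCPOBOP treated mice below all vehicle mice.

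Mice of one group differed widely in the acute phase members, most of all after TCPOBOP. The highest mouse exceeded the lowest 25.4-fold for Saa1, 28.2-fold for Saa2 and 20.8-fold for Saa3 in TCPOBOP treated mice on the cholesterol diet. On standard diet the same ratio was 16.3-fold, 18.1-fold and 17.1-fold in TCPOBOP treated mice. For Saa1 it was 3.08-fold in PCN treated mice on the cholesterol diet and 2.66-fold and 2.05-fold in vehicle mice on the cholesterol and standard diets. In pool 3 it was 4.88-fold in PCN treated mice and 1.97-fold in vehicle mice on standard diet. For Saa4 it stayed between 1.25-fold and 1.58-fold in the 7 groups. In both TCPOBOP groups, Saa1, Saa2 and Saa3 had the 3 largest SDs of the 277 genes, whose median SD was 0.156 on the cholesterol diet and 0.135 on standard diet. The family was chosen on TCPOBOP values and with mouse 3 on the cholesterol diet known to stand apart, so nothing is read from these ranks. In PCN treated mice on standard diet Saa1, Saa3 and Saa2 had the SDs ranked 2, 3 and 5 of the 277 genes. The 3 spots of a probe agreed far better than the mice did, and the median SD over spots was 0.036 for Saa1, 0.047 for Saa2, 0.037 for Saa3 and 0.030 for Saa4.

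Mouse 3 of the TCPOBOP group on cholesterol diet was compared with its 5 group mates over the whole array. Its array had the lowest r of pool 1 with the authors' deposited log2 ratios, 0.917. In those ratios its Saa1, Saa2 and Saa3 were at 0.35, 0.33 and 0.62. The spike-in controls on its array had a median log2 ratio of -0.58, against -0.28 to 0.21 in its group mates and -0.76 to 0.15 in the vehicle mice. The part of the array in its Saa values was not tested. Besides the 3 acute phase Saa genes, 30 genes differed by at least 1 log2 unit between the other 5 mice and the vehicle mean. In mouse 3 all 30 differed from the vehicle mean in the same direction, at 34.6% to 138% of the difference of the others with a median of 83.8%, and 3 of the 30 lay inside the range of the vehicle mice. In the other mice of the group the same median, each taken against the rest, was 87.8%, 96.4%, 110%, 105% and 101% for mice 1, 2, 4, 5 and 6. Saa1, Saa2 and Saa3 stood at -12.1%, -12.1% and -17.8% in mouse 3. Its Cyp2b10 was 0.99, close to the 1.06 to 1.30 of the others and far from the -2.88 to -1.42 of the vehicle mice. Of the 12 other acute phase and complement genes on the array, 4 lay above all of its group mates and inside the vehicle range in mouse 3, and 8 lay within the range of its group mates. Over all 277 genes these shares were 11.2% and 60.6%. Orm1, a plasma acute phase protein that binds drugs, was at -0.23 there, -1.05 to -0.73 in the others and -0.68 to 0.01 in vehicle mice. Hpx, the heme scavenger hemopexin, was at 0.05 in mouse 3 and -0.48 to -0.35 in the others. The complement component C2 was at 0.26 in mouse 3 and -0.77 to -0.29 in the others. The complement inhibitor C4bp was at 0.00058 in mouse 3 and -1.12 to -0.17 in the others. Counted over the array, 10 of the 277 genes, Saa1, Saa2 and Saa3 among them, were far from the rest of the group in mouse 3. In the other 5 mice 1 to 6 genes were. Those 3 genes were part of the choice of this mouse, so nothing is read from the count.

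**Figure D2:**
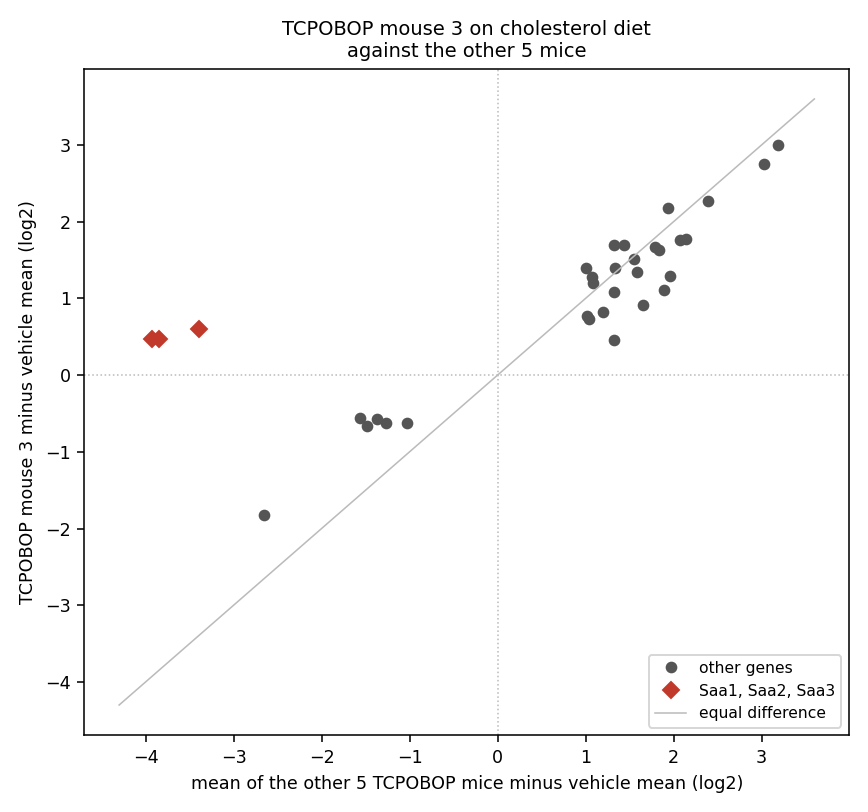
Difference from the vehicle mean on cholesterol diet in log2 units, in the mouse TCPOBOP 3 (vertical axis) against the mean of the other 5 TCPOBOP treated mice (horizontal axis). Each point is 1 of the 33 genes that differed by at least 1 log2 unit in the other 5 mice. Apart from the Saa genes, 30 points lie at 34.6% to 138% of the others' difference, with a median of 83.8%. Saa1, Saa2 and Saa3 lie just above 0 on the vertical axis.

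The differences of TCPOBOP between the diets were small beside that spread. With TCPOBOP in both groups, Saa1 differed by -0.32 (SE 0.72) between the cholesterol and the standard diet, Saa2 by -0.32 (SE 0.74), Saa3 by -0.11 (SE 0.70) and Saa4 by 0.10 (SE 0.09). The TCPOBOP difference on the cholesterol diet minus that on standard diet was 0.35 (SE 1.04) for Saa1, 0.36 (SE 1.07) for Saa2, 0.60 (SE 1.01) for Saa3 and -0.12 (SE 0.13) for Saa4. Without mouse 3 of the TCPOBOP group on cholesterol diet, the mean of the last quantity over Saa1 to Saa3 was -0.27, against 0.44 with it. On the cholesterol diet, TCPOBOP treated mice differed from PCN treated mice by -3.79 (SE 0.65) for Saa1, -3.89 (SE 0.67) for Saa2, -3.27 (SE 0.61) for Saa3 and -0.32 (SE 0.11) for Saa4. For Saa1 to Saa3 the groups overlapped at mouse 3 alone, without which the differences were -4.51, -4.62 and -3.93.

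Arrays of pool 1 came with spot positions on either of 2 scales in the scanner files. Replicates 1 and 2 were on the large scale, as were all arrays of pool 3, with maxima of 8540 to 10420 over both pools. The other replicates of pool 1 were on the small scale, with maxima of 16.6 to 19.4. Within the arrays of the large scale, the mean difference of Saa1 to Saa3 between TCPOBOP treated and vehicle mice was -2.25 on standard diet and -4.09 on cholesterol diet, and within those of the small scale it was -4.05 and -2.68. The TCPOBOP treated mice were lower in each subset, and the diet with the larger difference was not the same one in both. Only 1 vehicle mouse on the cholesterol diet had an array of the large scale.

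The cholesterol diet was compared in vehicle mice to ask whether the diet alone moved the family. Saa1, Saa2 and Saa3 had lower means on the cholesterol diet and Saa4 a higher one, none past the threshold. Saa1 averaged -0.13 ± 0.58 (SD, n = 5) on the cholesterol diet and 0.54 ± 0.35 (SD, n = 6) on standard diet, and mice 1 and 4 on the cholesterol diet lay among the mice on standard diet. The difference was -0.67, 95% interval -2.24 to 0.90, with an adjusted p of 0.638 from limma. Saa2 differed by -0.68, 95% interval -2.30 to 0.93, and Saa3 by -0.71, 95% interval -2.23 to 0.81, with limma's adjusted p of 0.638 and 0.594. Saa4 differed by 0.21, 95% interval 0.02 to 0.40, with an adjusted p of 0.121 from limma. Of the 277 genes, 14.4% passed limma's adjusted p of 0.05 and 0 of the 4 members did, with 1 member (Saa4) and 29.6% of all genes at an unadjusted p under 0.05. The 4 groups of this fit share 1 estimate of the spread, and the TCPOBOP treated mice made it wide for Saa1 to Saa3. With only the vehicle groups in the fit, limma's adjusted p was 0.0909, 0.0945, 0.0995 and 0.148 for Saa1 to Saa4. Exact two-sided permutation tests over the mice gave p of 0.0476, 0.0541, 0.0628 and 0.0649, each 0.126 after adjustment over the 12 tests of this kind. On the large scale of spot positions, with 1 vehicle array on cholesterol diet, the mean difference of Saa1 to Saa3 was 0.27, and on the small scale it was -0.96.

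PCN treated mice on the cholesterol diet were set against the same vehicle mice as the TCPOBOP treated ones. Saa1 was at 0.23, -0.42, 1.20, 0.46, 0.69 and 1.05 in PCN treated mice, against 0.64, -0.53, 0.28, -0.25 and -0.78 in vehicle mice. The groups overlapped and the difference of 0.66 had a 95% interval of -0.78 to 2.11 and an adjusted p of 0.759 from limma. Saa2 differed by 0.70 (-0.79 to 2.19), Saa3 by 0.54 (-0.81 to 1.88) and Saa4 by -0.06 (-0.30 to 0.17), with limma's adjusted p of 0.754, 0.779 and 0.860. The TCPOBOP treated mice entered this fit too and widened its shared spread for Saa1 to Saa3. For Saa1 their SD was 1.86, against 0.59 in PCN treated mice and 0.58 in vehicle mice. Under the alternatives, limma's adjusted p went no lower than 0.378 for Saa1 and Saa2 and 0.461 for Saa3. The sign for Saa4 turned when arrays were centred on the median (0.07) or normalized on the spike-in controls (0.0012), and was also positive (0.36) within the arrays of the large position scale, which hold 1 vehicle array. Limma called 1.08% of the 277 genes and none of the 4 members in this comparison, with 0 members and 12.6% of all genes at an unadjusted p under 0.05, and exact permutation tests gave p of 0.0952, 0.0974, 0.160 and 0.636. A fall by 1 log2 unit lies outside the interval of each gene. Within the arrays of the large scale, with 1 vehicle array, the mean difference of Saa1 to Saa3 was -0.79, and within those of the small scale it was 1.15.

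On standard diet, PCN treated mice had lower means of Saa1, Saa2 and Saa3 than their vehicle mice, and Saa4 was close. Saa1 was at -1.12, -2.31, -0.021, -0.23, -0.74 and -1.61 in PCN treated mice 1 to 6, against 0.05, -0.038, 0.022, 0.59 and -0.39 in vehicle mice 2 to 6. PCN treated mice 3 and 4 lay within the vehicle range and the other 4 below it. Saa1 differed by -1.05, 95% interval -1.85 to -0.25, with an adjusted p of 0.195 from limma, and all 6 PCN treated mice lay below the vehicle mean. Saa2 was at -1.06, -1.93, 0.015, -0.20, -0.53 and -1.40 in PCN treated mice, against 0.14, 0.035, 0.077, 0.83 and -0.14 in vehicle mice. It differed by -1.04, 95% interval -1.76 to -0.32, with limma's adjusted p of 0.154. Saa3 was at -0.68, -1.91, 0.16, -0.018, -0.35 and -1.59 in PCN treated mice, against -0.0042, -0.035, 0.17, 0.64 and -0.28 in vehicle mice. It differed by -0.83, 95% interval -1.62 to -0.04, with limma's adjusted p of 0.338, and mouse 3 lay above the vehicle mean. Saa4 ran from -0.41 to 0.15 in PCN treated mice and from -0.42 to 0.11 in vehicle mice, a difference of 0.05 (-0.19 to 0.29) with limma's adjusted p of 0.906. Its sign turned when arrays were normalized on the spike-in controls (-0.0082), and it was negative (-0.045) on the arrays whose spike-in controls were dimmer in the liver channel.

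Limma called 2.53% of the 277 genes in this comparison and 0 of the 4 members, with 3 members and 13.0% of all genes at an unadjusted p under 0.05. Exact permutation tests gave two-sided p of 0.0303, 0.0195, 0.0736 and 0.665 for Saa1 to Saa4, which became 0.126, 0.126, 0.126 and 0.665 after adjustment over the 12 tests. PCN treated mouse 2, the lowest for Saa1, Saa2 and Saa3, stood apart in 17 of the 277 genes, against 0 to 4 in its group mates. Without it the differences of Saa1, Saa2 and Saa3 were -0.79, -0.83 and -0.59. Where the spike-in controls were dimmer in the liver channel (PCN treated mice 1, 3 and 4 and vehicle mice 2 and 4), the mean difference of Saa1 to Saa3 was -0.43, and on the arrays near balance it was -1.51.

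**Figure D3:**
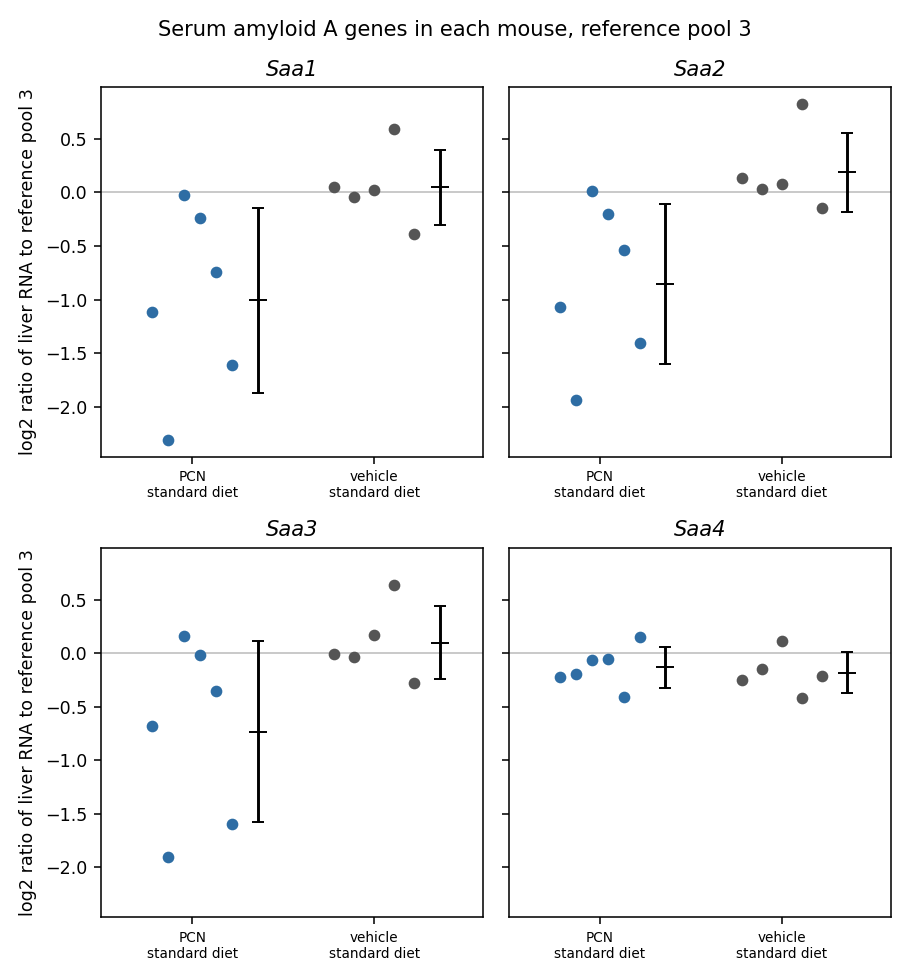
Log2 ratio of liver RNA to reference pool 3 (vertical axis) of the 4 genes in PCN treated and vehicle mice on standard diet, one point per mouse, with the group mean and SD as bars. Saa1 ran down to -2.31 in PCN treated mice while 2 of the 6 lay within the vehicle range, and the groups of Saa4 overlapped almost entirely.

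The difference between PCN treated and vehicle mice was higher on the cholesterol than on the standard diet by 1.72 (SE 0.51) for Saa1, 1.74 (SE 0.50) for Saa2 and 1.37 (SE 0.51) for Saa3. The adjusted p from limma was 0.172, 0.172 and 0.327. These were the highest 3 differences of the 277 genes. Saa4 differed by -0.11 (SE 0.17, limma's adjusted p 0.868). Of the 277 genes 0 passed the adjusted threshold, against 10.1% at an unadjusted p under 0.05, among them Saa1, Saa2 and Saa3. The diets also differ here in reference pool and in the age of the PCN treated mice, whose parts cannot be told apart from that of the diet.

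Across the groups of pool 1, the mean of Saa1 was lowest in TCPOBOP treated mice on cholesterol diet (-3.26 ± 1.86) and on standard diet (-2.94 ± 1.66), followed by vehicle mice on cholesterol diet (-0.13 ± 0.58), PCN treated mice on cholesterol diet (0.54 ± 0.59) and vehicle mice on standard diet (0.54 ± 0.35). Saa3 had the same order, and for Saa2 the last 2 places were exchanged, with 0.57 ± 0.62 in PCN treated mice on cholesterol diet and 0.55 ± 0.32 in vehicle mice on standard diet. The only neighbours in this order whose ranges did not overlap were TCPOBOP treated mice on standard diet and vehicle mice on cholesterol diet, and that for Saa1 and Saa2 alone. Saa4 had another order, with the TCPOBOP treated mice on standard diet lowest (-0.36 ± 0.15) and the vehicle mice on cholesterol diet highest (0.11 ± 0.21), and every pair of neighbours overlapped.

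Among mice of one group the acute phase members moved almost as one. Over the 29 arrays of pool 1, as deviations from the group means, Saa1 and Saa2 had a Pearson's r of 0.999, Saa1 and Saa3 of 0.992 and Saa2 and Saa3 of 0.990. Without the 2 arrays farthest from the median of Saa1, TCPOBOP treated mouse 3 on cholesterol diet and mouse 4 on standard diet, the first 2 values were 0.999 and 0.984. On the 11 arrays of pool 3 they were 0.989 and 0.981. Saa4 had an r of -0.24 with Saa1, -0.25 with Saa2 and -0.22 with Saa3. The values of a mouse share 1 array and 1 labelling, and the r values are a description.

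**Figure D4:**
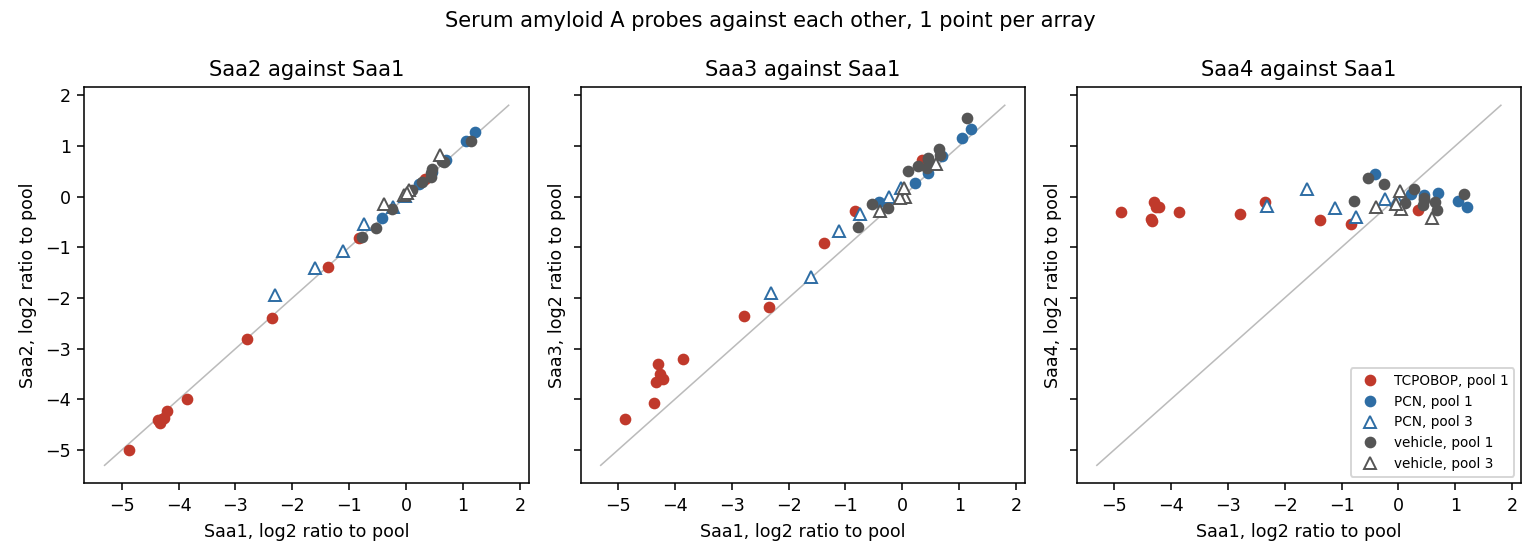
Log2 ratio to the reference pool of other members, Saa3 and Saa4 among them (vertical axes), against that of Saa1 (horizontal axis), one point per mouse. Saa3 follows Saa1 along a line through all groups, and Saa4 stays within -0.54 to 0.45 over the whole range of Saa1.

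Other genes of the acute phase were set beside the family, from lists of known members. Of the 5 positive acute phase genes on the array, 0 rose and 3 fell in TCPOBOP treated mice on standard diet, where limma called 43.3% of the 277 genes. Fgb, the fibrinogen beta chain of the clot, fell by 0.69 (SE 0.20, limma's adjusted p 0.0075). Orm1 fell by 0.65 (SE 0.18, adjusted p 0.0058) and Hpx by 0.55 (SE 0.18, adjusted p 0.018). The median of the list was -0.55, against -0.01 over all genes. On the cholesterol diet, where limma called 37.5% of the genes, 1 rose and 1 fell with a list median of -0.34. Orm1 fell by 0.57 (limma's adjusted p 0.021) and Crp, the C-reactive protein, rose by 0.31 (adjusted p 0.032). Without mouse 3, 1 rose and 2 fell, Hpx joining Orm1 with a fall by 0.51 (limma's adjusted p 0.042). In that fit limma called 40.8% of the 277 genes. Apcs, serum amyloid P, the acute phase pentraxin of mice, differed by -0.33 on standard diet and by 0.69 on cholesterol diet, neither past the threshold.

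Of the 7 genes of complement and its inhibitors, 6 fell in TCPOBOP treated mice on standard diet (median -0.58) and 4 on the cholesterol diet (median -0.37), with 0 rising on either. Of all 277 genes, 21.3% fell on standard diet and 14.4% on cholesterol diet. C4bp, which holds back complement activation, fell by 1.13 (SE 0.14, limma's adjusted p 1.3e-06) on standard diet and by 0.63 (adjusted p 0.0024) on cholesterol diet. C9, a part of the membrane attack complex, fell by 0.93 (SE 0.24, adjusted p 0.0033) and by 1.16 (adjusted p 0.00089). C4 and Serping1, the C1 inhibitor, fell on both diets, and C2 and Hc, the mouse C5 gene, on standard diet. Without mouse 3, 5 of the 7 fell on the cholesterol diet, C2 by 0.49 (limma's adjusted p 0.028) among them. Of all 277 genes, 47 fell in that fit. C3, the central component, differed by 0.04 on standard diet (limma's adjusted p 0.851).

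**Figure D5:**
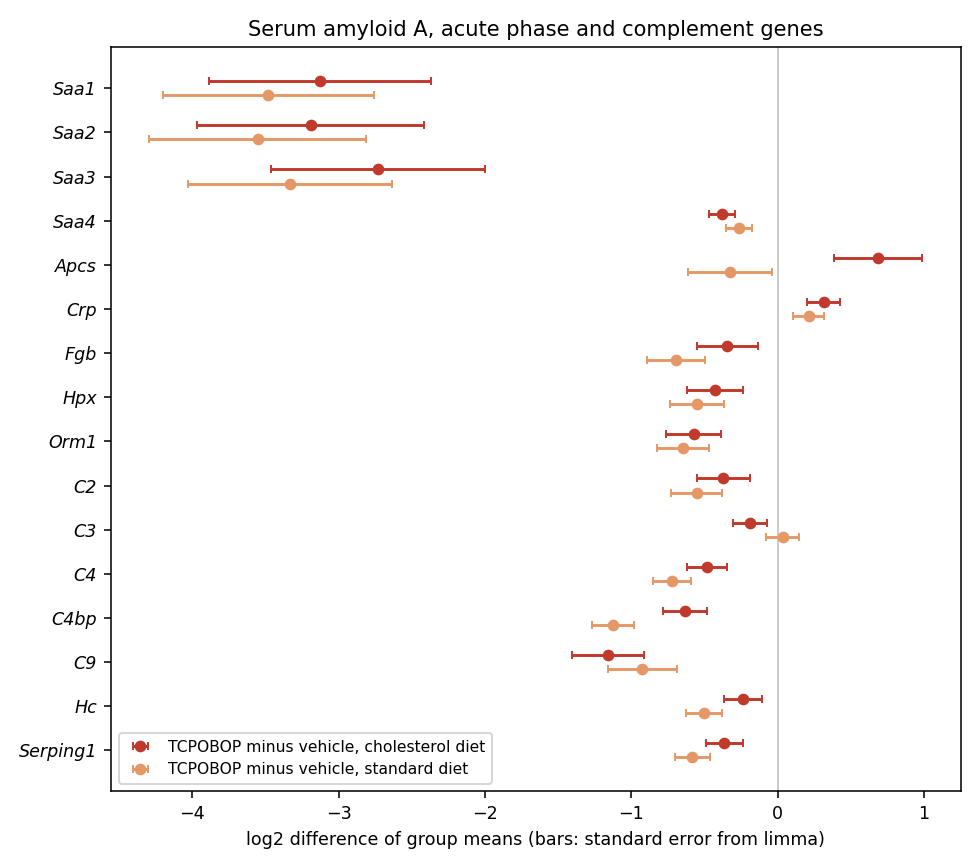
Log2 difference between TCPOBOP treated and vehicle mice (horizontal axis) of the serum amyloid, acute phase and complement genes on the array, on each diet, with the standard error from limma as bars. Saa1 to Saa3 lie between -3.55 and -2.73, and the lowest of the other genes is C9 on cholesterol diet at -1.16.

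Genes that fall in an acute phase did not move one way. Of the 4 on the array, Apoa4, an apolipoprotein of high density lipoprotein, rose by 2.11 (SE 0.20, limma's adjusted p 1.7e-08) and Igf1, insulin-like growth factor 1, fell by 1.13 (SE 0.14, adjusted p 1.3e-06) in TCPOBOP treated mice on standard diet. On the cholesterol diet Apoa4 rose by 0.98, Igf1 fell by 1.35 and Alb, albumin, fell by 0.40 (limma's adjusted p 0.023). The list of cytokines, receptors and factors known to act on Saa genes had 12 genes on the array, none of them a cytokine or a cytokine receptor. Of these 12, 1 rose and 4 fell on standard diet, and 1 rose and 1 fell on cholesterol diet. On those diets 43.3% and 37.5% of all genes were called in either direction, so the 5 of 12 called on standard diet are near the share of all genes. Cebpa, a liver-enriched C/EBP factor, fell by 1.21 (SE 0.12, limma's adjusted p 4.8e-08) and by 0.97 (adjusted p 3.0e-06). Stat3, the factor of interleukin 6 signalling, fell by 0.35 on standard diet (limma's adjusted p 0.0089) and differed by -0.01 on cholesterol diet. Jun rose on both diets, but its probe was above background on 7.5% of the arrays. Jak2, 1 of the 4 that fell on standard diet (by 0.20, limma's adjusted p 0.012), was above background on 10% of them. Of 12 genes of high density lipoprotein, on which Saa proteins are carried, 1 rose and 3 fell on each diet, a lower share than the 43.3% and 37.5% of all genes called. Scarb1, the receptor of that particle, fell by 0.83 (SE 0.09, limma's adjusted p 5.4e-08) on standard diet and by 0.77 on cholesterol diet, and Apoe and Apoa5 fell on both. Without mouse 3 of the cholesterol diet, 1 rose and 4 fell there, or 41.7% of the list, near the 40.8% of all genes called in that fit. Abca1, the pump that loads the particle with lipid, then fell by 0.45 (limma's adjusted p 0.037). Among the 12 factors 1 rose and 2 fell without that mouse, or 25%.

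In vehicle mice, 2 of the 5 positive acute phase genes fell on the cholesterol diet, Apcs by 1.03 (SE 0.30, limma's adjusted p 0.022) and Fgb by 0.63 (SE 0.21, adjusted p 0.045), and 9.75% of all 277 genes fell. C9 rose by 0.96 (SE 0.25, limma's adjusted p 0.0082), Stat3 fell by 0.34 (adjusted p 0.033), and Apoa4 and Igf1 rose. In PCN treated mice on the cholesterol diet, where limma called 1.08% of the 277 genes, none of these lists held a called gene. On standard diet, where it called 2.53%, the only one was Apoa5, an activator of lipoprotein lipase, which fell by 0.49 (limma's adjusted p 0.037). With so few genes called over the whole array, nothing is read from these counts.

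The genes whose deviations within groups were most like the mean of the 4 probes over the 29 arrays of pool 1, after Saa1 to Saa3 themselves, were Orm1 (r 0.79) and Slc2a4 (r 0.74), the insulin-responsive glucose transporter. Without the 2 farthest arrays their r was 0.68 and 0.64. Hpx, likewise with r 0.74, had 0.72 without those arrays. At the other end were Prkc (r -0.63), Tim (r -0.58) and Pmvk (r -0.55), of which Prkc and Pmvk were below background on all of these arrays, then Cyp1a2 and Actb (r -0.51 each), which had -0.27 each without the 2 arrays. The mean includes the 4 members themselves, and Saa4 had an r of -0.19 with it.

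Of the macrophage markers that were listed, Msr1 alone is on the array, and it was below background on all arrays of pool 1 and differed by -0.02 and -0.03 between TCPOBOP treated and vehicle mice on standard and cholesterol diet. The mean log2 ratio of 7 hepatocyte markers (Alb, Apoa1, Apob, Cyp2e1, Cyp7a1, Cyp8b1 and Hnf4a) ran from -0.34 to -0.03 in TCPOBOP treated mice and from 0.16 to 0.35 in vehicle mice on standard diet. On cholesterol diet it ran from -0.27 to -0.04 in TCPOBOP treated mice and from -0.20 to 0.30 in vehicle mice. Of these 7, 0 rose and 2 fell on standard diet (Cyp2e1 and Cyp8b1, enzymes of drug and bile acid metabolism) and 1 fell on cholesterol diet (Alb), where 21.3% of all genes fell on standard and 14.4% on cholesterol diet. On standard diet Cyp8b1 differed by -2.04 and Cyp2e1 by -0.69, and the remaining markers by -0.30 (Alb) to 0.09 (Hnf4a). The mean of 3 adipocyte markers (Adipoq, Lep and Retn) ran from 0.056 to 0.11 in TCPOBOP treated mice and from 0.094 to 0.18 in vehicle mice on standard diet, where Adipoq fell by 0.12 (limma's adjusted p 0.039). It ran from 0.02 to 0.14 in TCPOBOP treated mice and from 0.015 to 0.21 in vehicle mice on cholesterol diet, where none of the 3 was called. Lep was above background on 0% of the arrays and Retn on 12.5%, so this mean says little of adipocytes. The fall of 1 of these 3 on standard diet stands beside the 21.3% of all genes that fell there. The part of these markers in the Saa differences was not tested. Markers of neutrophils, blood, stellate, endothelial and bile duct cells are not on the array.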

How the data were processed

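Liver RNA of each mouse (Cy3, per the labels) was hybridized with a reference pool (Cy5) on Steroltalk 2-colour cDNA arrays of 1440 spots. The scanner files as deposited hold the mean intensity of every spot and its local background in both channels, with no subtraction or normalization. The value table holds log2 ratios of sample to reference that the authors had normalized and summarized to 1 value a probe, and was used as an alternative. For vehicle replicate 2 on cholesterol diet no scanner values were used here, and 1 file stood for both vehicle replicates 1 and 3 of pool 3. Its values had an r of 0.926 with the deposited column of replicate 3 and of -0.026 with that of replicate 1, so it was counted once, as replicate 3. Across the arrays the r with the deposited column was 0.917 to 0.996 in pool 1 and 0.69 to 0.979 in pool 3. The 0.917 was that of mouse 3 of the TCPOBOP group on cholesterol diet.

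The background was removed with normexp (offset 50), a loess curve (span 0.3) fitted to the mouse spots was subtracted from each array, and the 3 to 6 spots of each probe were averaged. The 277 genes came from 284 mouse probes (brightest of several probes in 6 genes), matched by symbol (220), synonym (50) or the name in the file (14). A spot was above background where its mean passed the background median plus 2 SDs. In pool 1 arrays had median liver signals of 157.68 to 297.11, and those of pool 3 of 23.6 to 137.27, and the number of arrays limits the precision. Of 253 pairs of arrays of the TCPOBOP and vehicle groups of pool 1, 91 had an r under -0.3, all of a TCPOBOP with a vehicle array, the lowest being -0.67. The labels settle the direction of the ratio.

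The lmFit and eBayes functions of limma 3.58.1 (R 4.3.3) gave the differences. One model held the 4 TCPOBOP and vehicle groups of pool 1, another the 3 groups fed cholesterol, a further one the 2 groups of pool 3, and the diet dependence of PCN was fitted on the 4 groups concerned. Adjusted p-values follow Benjamini and Hochberg across all 277 genes and were called under 0.05. Exact two-sided permutation tests ran over the 462 splits of the mice. Replicates are single mice. The script was tested on simulated data. Alternatives covered the background correction, normalization, summaries, dim probes, the groups of the fit, replicate number and batch as blocks, array weights, the methods' t-test and leaving out each mouse. The genes named are the 4 members, Cyp2b10 and Cyp3a11, and the 5 genes most and least like the family. They also include the members on the array of lists of acute phase, complement, cytokine signalling and lipoprotein genes and of cell markers. The members and lists were chosen with earlier results of these data known. Python 3.11.15 searched the promoters.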

Additional observations from a re-analysis of the deposited data

Results flagged for a closer look

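Of 28 groups of values of the 4 genes, 5 held a mouse whose gap to the nearest other was large for the range of its group (Dixon's ratio). Mouse 3 of the TCPOBOP group on cholesterol diet was at 0.337 for Saa1, with the nearest mouse at -2.79 and a gap of 0.670 of the range, at 0.3438 for Saa2 (nearest -2.81, gap 0.655 of the range) and at 0.7191 for Saa3 (nearest -2.36, gap 0.704 of the range). These 3 values come from 1 array and the family was chosen with this mouse known to stand apart, so they are a description, to which no chance rate applies. Vehicle mouse 5 on standard diet of pool 1 was at 1.5578 for Saa3 (nearest 0.81, gap 0.702 of the range), and vehicle mouse 5 of pool 3 was at 0.8252 for Saa2 (nearest 0.14, gap 0.711 of the range). For values not chosen in this way, chance flags about 1 in 20 groups.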

How the results depend on the processing

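Of 262 values of the main comparisons under alternatives, 255 kept their direction within 1 SD of the mice or, for the count of exact tests, within 1.5 times, and 7 reversed; the cause was not tested. As the mean of Saa1 to Saa3, the diet difference in vehicle mice was 0.27 within the arrays of the large position scale against -0.69 on all arrays, PCN on cholesterol diet -0.79 against 0.63, and the diet dependence of the TCPOBOP difference -1.84 against 0.44. With 1 vehicle array on cholesterol diet there, the lone mouse is assumed to vary like the others. The diet difference in TCPOBOP treated mice was 0.41 within the small scale against -0.25 on all arrays. Leaving out 1 mouse gave -0.95 to 0.19 for that difference (0.19 without mouse 4 and 0.07 without mouse 2 of the TCPOBOP group on standard diet), and -0.27 to 0.87 for the diet dependence (-0.27 without mouse 3). TCPOBOP on standard diet ran from -3.89 to -3.07, on cholesterol diet from -3.72 to -2.80 and PCN on standard diet from -1.16 to -0.74. With the replicate number as a block the means were -3.45, -3.06, -0.64, 0.82 and -0.96 for TCPOBOP on standard and cholesterol diet, the diet in vehicle mice and PCN on cholesterol and standard diet, and no call of a member changed, though limma then called 1 gene instead of 7 for PCN on standard diet. Same-numbered mice had a median r of 0.003 over 56 pairs in pool 1 and of -0.133 over 5 in pool 3, so the numbers do not pair them. Saa4 in the diet comparison passed with array weights (limma's adjusted p 0.0354). The methods' t-test passed Saa1 to Saa3 unadjusted for the diet and Saa1 and Saa2 for PCN on standard diet. Loess on the spikes moved the median of all genes for PCN on standard diet to -0.12. Called genes for TCPOBOP on standard diet were 120, against 75 with the deposited ratios and 33 within the arrays of the large position scale, for TCPOBOP on cholesterol diet 104, against 25 within those arrays, for the diet 40, against 0 within those arrays and 81 by the unadjusted t-test, and for PCN on standard diet 7, against 0 with median centring, 29 by the unadjusted t-test and 1 and 0 within the arrays with dimmer and near-balanced spikes. For PCN on cholesterol diet limma called 3 genes, against 13 within the small scale and 0 within the large. Of the genes called for the diet 32.5% were higher, 45.7% with plain background subtraction, 48.6% with the deposited ratios and 50% with loess on the spikes. The lists without 1 mouse were chosen after seeing the data.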

Other observations

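For the samples with no scanner values of their own, the authors' deposited log2 ratios were as follows. Vehicle mouse 2 on cholesterol diet was at 0.602 for Saa1, 0.636 for Saa2, 0.806 for Saa3 and 0.239 for Saa4. Vehicle mouse 1 of pool 3 was at -0.698 for Saa1, -0.708 for Saa2, -0.399 for Saa3 and -0.296 for Saa4. With all 42 samples in the deposited ratios, the mean difference of Saa1 to Saa3 was -3.50 for TCPOBOP on standard diet, -3.13 for TCPOBOP on cholesterol diet, -0.51 for the diet in vehicle mice, 0.47 for PCN on cholesterol diet and -0.87 for PCN on standard diet.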
